A study of Mus musculus with 6 samples.

Results

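The 10 genes described here are Toll-like receptors, NOD receptors and the proteins that work directly with them, in RENCA, an established mouse renal adenocarcinoma cell line. They were chosen by symbol, with earlier results of these data known, and all 10 were found once each among the 78298 genes of the count table. They are Tlr2, Tlr3 and Tlr4 (Toll-like receptors), Ly96 (MD-2) and Cd14 (partners of Tlr4 in sensing lipopolysaccharide), Myd88 and Ticam1 (TRIF), which are adaptors of the Toll-like receptors, Nod1 and Nod2 (cytosolic receptors), and Ripk2, the kinase that both NOD receptors recruit. RENCA cells carried either a lentivirus with the mouse Aqp1 coding sequence under the ubiquitin C promoter (oe-AQP1, 3 samples) or the empty vector (oe-NC, 3 samples). Puromycin (2 μg/mL) was then applied to each group over 14 days, and untransduced cells were not analysed here. All 6 samples carry the same batch label. The study describes the oe-AQP1 cells as a stable line, in the singular, and gives no separate transduction per sample, so p-values measure the spread between these samples only, which may be technical. Each sample was a total RNA library, and the values are read counts per gene, from 18385714 to 21920899 in all per sample.

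Toll-like receptors detect microbial molecules and nucleic acids at the cell surface or inside endosomes through leucine-rich repeats, and they signal through a TIR domain. Tlr2 senses bacterial lipopeptides, Tlr3 senses double-stranded RNA, and Tlr4 senses lipopolysaccharide together with Ly96 and Cd14. Myd88 serves most of these receptors, while Ticam1 is the adaptor of Tlr3 and of endosomal Tlr4. Nod1 and Nod2 detect bacterial cell wall peptides in the cytosol and signal through Ripk2 by way of CARD domains. These pathways end in NF-κB and, on the Ticam1 branch, in interferon regulatory factors, and they are known from tubular epithelium as well as from myeloid cells. The domain column of the deposited annotation lists TIR for Tlr2, Tlr3, Tlr4 and Myd88, and CARD for Nod1, Nod2 and Ripk2.

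The library from oe-NC sample 1 stood apart. Its counts differed from those of the other oe-NC samples by 9.75 and 11.26 (chi-square per gene), against 1.74 to 2.06 for all other pairs within a group, where sampling noise alone gives about 1. The delivered gene matched the labels in every sample, since 7713, 8545 and 7838 Aqp1 counts were found in oe-AQP1 and 41, 25 and 45 in oe-NC libraries. Of the renal epithelial markers, Pax8, Krt8 and Krt18 were well counted, while Epcam had no count in any sample. Of 10 macrophage markers, Adgre1 and C1qa had no count in any sample and 6 averaged under 1 CPM (counts scaled to a common library total, with TMM factors). The summed level of the macrophage list ran from 52.2 to 55.7 CPM in the oe-AQP1 libraries and from 60.1 to 64.2 CPM in the oe-NC libraries. Within that list Csf1r (log2FC = -1.51, adjusted p = 1.31e-05) and Lyz2 (log2FC = -0.52, adjusted p = 2.73e-04) were lower in oe-AQP1 cells by limma-voom. The other 2 tested, Cd68 and Spi1, did not pass the test (log2FC of 0.15 and 0.04). Cd68 had the highest level of the list, at 33.8 CPM in oe-AQP1 and 30.6 CPM in oe-NC cells. Over all genes tested, 16.6% were called lower. Renal epithelial markers summed to 699 to 731 CPM in oe-AQP1 libraries against 832 to 917 CPM in oe-NC libraries. Of 8 tested, 4 were lower, beside 16.6% over all genes. These were Krt8, Krt18, Cdh1 and Lrp2 (log2FC of -0.41, -0.27, -0.86 and -0.93). Pax8, Pax2, Lhx1 and Cubn did not pass the test (log2FC of -0.07, 0.25, -0.19 and -0.32). Fibroblast markers summed to 56.0 to 58.0 CPM against 51.0 to 65.0 CPM, with Pdgfrb higher (log2FC = 0.34) and Col1a1 lower (log2FC = -0.73). T and B cell markers summed to at most 1.55 CPM and endothelial markers to at most 1.73 CPM in any sample, and none of either list passed the test. The part of these markers in the results that follow was not tested.

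In oe-AQP1 cells, 6 of the 10 genes were higher than in oe-NC cells and none was lower (limma-voom, Benjamini-Hochberg adjusted p under 0.05 over 15522 genes tested). Over all genes tested, 16.0% were called higher and 16.6% lower. The 10 genes were chosen with earlier results of these data known, so these shares are a description and no independent evidence. Tlr3 rose 5.56-fold, Nod2 2.68-fold, Tlr2 2.27-fold, Myd88 1.76-fold, Nod1 1.48-fold and Ripk2 1.35-fold. Tlr4, Ly96, Cd14 and Ticam1 did not pass the test. Tlr3, Nod2 and Tlr2 also passed the fold threshold used in the study (absolute log2FC above 1), which 4.39% of all genes did upward and 0.844% downward. The median log2FC (log2 fold change, oe-AQP1 against oe-NC) of the 10 genes was 0.50, beside 0.00 over all genes tested. All 10 genes had enough counts to be tested, and each had at least 28 counts in every sample. The edgeR quasi-likelihood test called 6 higher and 0 lower, and DESeq2 called 5 higher and 0 lower. Without oe-NC sample 1, 6 were higher and 0 lower. The 3 samples of one group lay wholly above those of the other for 7 of the 10 genes, as they did for 47.3% of all genes tested. In bulk RNA, fewer expressing cells and less RNA per cell cannot be told apart.

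**Figure D1:**
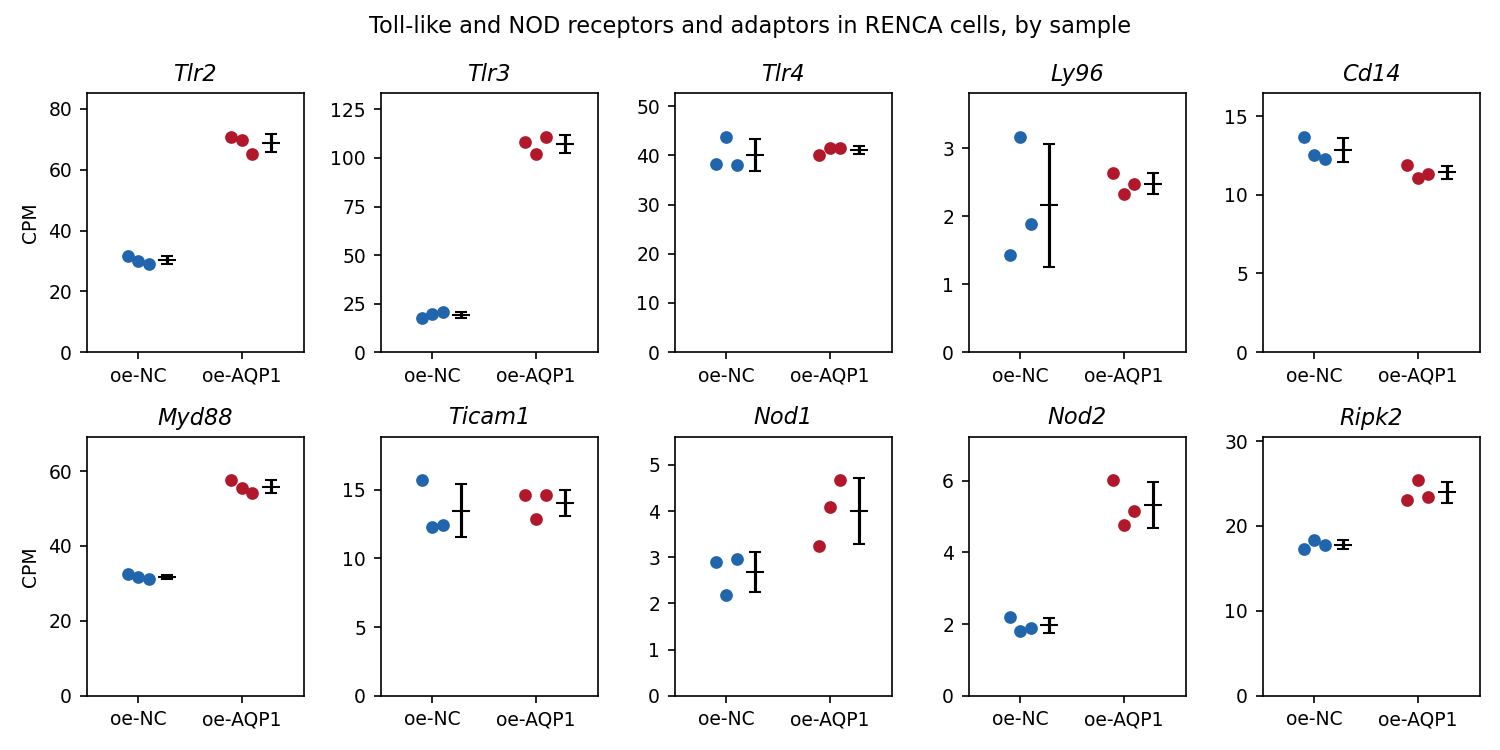
Level of each receptor and adaptor in CPM (y axis, starting at 0, its own scale per gene) in the 3 oe-NC samples (blue) and the 3 oe-AQP1 samples (red), with the mean and SD in black. Tlr3 lay between 17.6 and 20.7 CPM in oe-NC and between 102 and 111 CPM in oe-AQP1 samples, while the samples of Tlr4, Ly96 and Ticam1 overlapped between groups.

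Because Tlr3, Tlr2 and Myd88 were the best counted of the genes that rose, the sequence around their RefSeq start sites is shown, from 250 bases before the start site to 50 bases after it, 5′ to 3′ on the coding strand. Capitals mark every match on either strand to the NF-κB consensus (searched by name), to the core of the interferon-stimulated response element (ISRE) or to the STAT element (GAS) TTCNNNGAA. The sequences come from a RefSeq promoter table of GRCm38.p6, and each was found once on GRCm39, at chr8:45863368-45863667 for Tlr3, chr3:83748866-83749165 for Tlr2 and chr9:119169035-119169334 for Myd88, all on the reverse strand.
Tlr3: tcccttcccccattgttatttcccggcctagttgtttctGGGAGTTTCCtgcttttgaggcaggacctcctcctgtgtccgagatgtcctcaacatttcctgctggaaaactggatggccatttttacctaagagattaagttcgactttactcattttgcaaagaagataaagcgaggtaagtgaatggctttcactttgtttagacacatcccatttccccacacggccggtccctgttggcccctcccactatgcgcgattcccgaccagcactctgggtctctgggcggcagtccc
Tlr2: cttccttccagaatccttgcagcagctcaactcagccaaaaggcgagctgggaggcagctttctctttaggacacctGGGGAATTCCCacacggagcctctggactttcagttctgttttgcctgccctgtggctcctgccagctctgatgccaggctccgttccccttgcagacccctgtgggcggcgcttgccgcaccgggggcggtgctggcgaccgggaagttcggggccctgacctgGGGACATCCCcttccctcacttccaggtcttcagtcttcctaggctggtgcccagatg
Myd88: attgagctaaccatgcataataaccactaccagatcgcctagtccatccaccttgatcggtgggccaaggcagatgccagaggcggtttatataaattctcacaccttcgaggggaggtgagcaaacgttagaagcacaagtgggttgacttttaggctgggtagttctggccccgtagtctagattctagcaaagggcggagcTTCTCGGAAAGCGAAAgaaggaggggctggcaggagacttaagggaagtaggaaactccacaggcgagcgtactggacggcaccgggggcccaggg
Tlr3 held 1 NF-κB match, GGGAGTTTCC, whose first base lay at -211 from the start site. Tlr2 held 3, of which GGGGAATTCC and GGGAATTCCC overlapped at -173 and -172, and GGGACATCCC lay at -8. Myd88 held an ISRE match, GAAAGCGAAA, at -40, and a GAS match, TTCTCGGAA, at -46, which overlap each other. Of the 32851 RefSeq promoters of this length, 8.46% held an NF-κB match, 3.44% an ISRE match and 8.30% a GAS match. The RefSeq table matched 6 of the 10 genes, and Nod2 and Ticam1 held none of these motifs in their windows. Of the 2 Nod1 windows, 1 held a GAS match and neither held the others. Tlr4, Ly96, Cd14 and Ripk2 were not matched in the table. A match of letters is a description of the window and not a binding site. Only exact matches to the patterns were sought, so stretches that differ from a pattern by a letter are not marked. The RefSeq start sites lie 700 (Tlr3), 159 (Tlr2) and 1402 (Myd88) bases downstream of the gene start in GENCODE. The windows and the positions of the matches thus depend on the start site chosen.

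Among the receptors, Tlr3 (ENSMUSG00000031639, GRCm39 chromosome 8, 45848702 to 45864117, reverse strand) moved most. The oe-AQP1 libraries held 2139, 2247 and 2284 Tlr3 counts and the oe-NC libraries 346, 354 and 442, which is 107 ± 4.54 CPM against 19.2 ± 1.56 CPM (SD, n = 3). The lowest oe-AQP1 sample thus lay far above the highest oe-NC sample. The log2FC was 2.48 with a standard error of 0.07 (95% interval 2.32 to 2.63, adjusted p = 1.35e-09 by limma-voom). The spread between oe-AQP1 samples was 4.23% of the mean, against 2.12% that counting alone gives. A lncRNA on the opposite strand, Gm45542, shares 438 exon bases with Tlr3 and had 4 counts over all 6 samples.

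Tlr2 (ENSMUSG00000027995, chromosome 3, 83743576 to 83749074, reverse strand) was counted 1402, 1535 and 1342 times in oe-AQP1 libraries and 622, 550 and 618 times in oe-NC libraries. Its level was 68.7 ± 2.99 CPM against 30.3 ± 1.36 CPM (SD, n = 3), without overlap between the groups. All oe-AQP1 samples lay above all oe-NC samples in 23.5% of the genes tested. The log2FC of Tlr2 was 1.18 (standard error 0.06, 95% interval 1.06 to 1.31, adjusted p = 1.34e-07 by limma-voom). Tlr2 stayed above the fold threshold in every one of the 18 other fits, with log2FC from 1.15 to 1.22.

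The lipopolysaccharide receptor complex gave a different picture. Tlr4 (ENSMUSG00000039005, chromosome 4, 66745783 to 66849936, forward strand) was counted 792, 913 and 854 times in oe-AQP1 libraries and 750, 800 and 813 times in oe-NC libraries. Its level was 41.0 ± 0.85 CPM in oe-AQP1 and 40.0 ± 3.23 CPM in oe-NC cells (SD, n = 3), and the groups overlapped. The log2FC was 0.04 (95% interval -0.10 to 0.18, adjusted p = 0.653 by limma-voom), which spans folds from 0.934 to 1.13. The intervals of Tlr3 and Tlr2 lay wholly above that of Tlr4, and the differences between these genes were not tested.

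Ly96 (ENSMUSG00000025779, chromosome 1, 16758275 to 16779961, forward strand), the small protein that binds lipopolysaccharide beside Tlr4, was counted 52, 51 and 51 times in oe-AQP1 libraries and 28, 58 and 40 times in oe-NC libraries. The oe-NC samples of Ly96 spread over 42.0% of their mean, where counting alone gives 15.4%, and they enclosed the oe-AQP1 samples. Its log2FC was 0.29 (95% interval -0.28 to 0.85, adjusted p = 0.426 by limma-voom), which runs from a fold of 0.824 to one of 1.81. The value depended on single libraries, since it was 0.04 without oe-NC sample 1 and 0.58 without oe-NC sample 2.

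Cd14 (ENSMUSG00000051439), the co-receptor that hands lipopolysaccharide to Ly96 and Tlr4, was counted 236, 245 and 233 times in oe-AQP1 libraries and 269, 229 and 263 times in oe-NC libraries. Scaled to CPM, its 3 oe-AQP1 samples (11.1 to 11.9 CPM) lay just below its 3 oe-NC samples (12.3 to 13.7 CPM), as happened in 23.8% of the genes tested. The log2FC was -0.16 (95% interval -0.34 to 0.01) and did not pass the test (adjusted p = 0.147 by limma-voom). Cd14 was the only one of the 10 genes with a negative log2FC in the reported fit, and its value was negative in all 18 other fits (-0.20 to -0.12).

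Of the adaptors, Myd88 (ENSMUSG00000032508, chromosome 9, 119165000 to 119170486, reverse strand) rose and Ticam1 did not pass the test. Myd88 was counted 1139, 1222 and 1115 times in oe-AQP1 libraries and 636, 578 and 663 times in oe-NC libraries, which is 55.8 ± 1.70 CPM against 31.7 ± 0.654 CPM (SD, n = 3). The groups did not overlap. Its log2FC was 0.81 (standard error 0.05, 95% interval 0.70 to 0.93, adjusted p = 1.00e-06 by limma-voom), which is below the fold threshold of the study. Acaa1a, a peroxisomal thiolase gene on the opposite strand, shares 628 exon bases with Myd88, and without strand information reads from the shared bases cannot be told apart. Acaa1a itself had a log2FC of 0.46 (adjusted p = 9.07e-05) at 68.3 CPM in oe-AQP1 and 49.7 CPM in oe-NC cells, and its part in the Myd88 value was not tested.

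Ticam1 (ENSMUSG00000047123, chromosome 17, 56576319 to 56583786, reverse strand) was counted 288, 283 and 301 times in oe-AQP1 libraries and 308, 224 and 265 times in oe-NC libraries. Its highest value in CPM, 15.7, was that of oe-NC sample 1, and the groups overlapped. The log2FC was 0.06 (95% interval -0.17 to 0.30, adjusted p = 0.691 by limma-voom). Without oe-NC sample 1 it was 0.18 (adjusted p = 0.132).

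In the NOD branch, Nod2 (ENSMUSG00000055994, chromosome 8, 89373943 to 89415102, forward strand) moved most. It was counted 119, 105 and 106 times in oe-AQP1 libraries and 43, 33 and 40 times in oe-NC libraries, or 5.32 ± 0.637 CPM against 1.96 ± 0.205 CPM (SD, n = 3). The highest oe-NC sample, at 2.19 CPM, lay below the lowest oe-AQP1 sample, at 4.78 CPM. The log2FC was 1.42 (standard error 0.17, 95% interval 1.05 to 1.80, adjusted p = 1.33e-04 by limma-voom). Counting alone gives a spread of 9.53% of the mean in oe-AQP1 and 16.1% in oe-NC samples, and 12.0% and 10.5% were observed.

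Ripk2 (ENSMUSG00000041135, chromosome 4, 16121400 to 16163796, reverse strand) was counted 457, 558 and 481 times in oe-AQP1 libraries and 339, 337 and 378 times in oe-NC libraries. It rose from 17.8 ± 0.588 to 24.0 ± 1.23 CPM (SD, n = 3) without overlap. The log2FC was 0.43 (standard error 0.07, 95% interval 0.28 to 0.58, adjusted p = 8.24e-04 by limma-voom). This interval lay wholly below that of Nod2, and the difference between them was not tested. Parail, a lncRNA on the opposite strand, shares 113 exon bases with Ripk2 and had 300.65 counts over all samples.

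Nod1 (ENSMUSG00000038058, chromosome 6, 54900927 to 54949647, reverse strand) was counted 64, 90 and 96 times in oe-AQP1 libraries and 57, 40 and 63 times in oe-NC libraries. In CPM its lowest oe-AQP1 sample, at 3.24, lay close above its highest oe-NC sample, at 2.96. The log2FC was 0.56 (standard error 0.19, 95% interval 0.14 to 0.98), and the adjusted p of 0.0435 by limma-voom was near the threshold. The call of Nod1 was lost with DESeq2 (adjusted p = 0.0679) and without a low-count filter (adjusted p = 0.0924). It was also lost without oe-AQP1 sample 2 (0.118) or 3 (0.146) and without oe-NC sample 2 (0.143) or 3 (0.0624), all adjusted p-values by limma-voom. Over all alternatives the adjusted p of Nod1 ran from 0.0162 to 0.146.

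**Figure D2:**
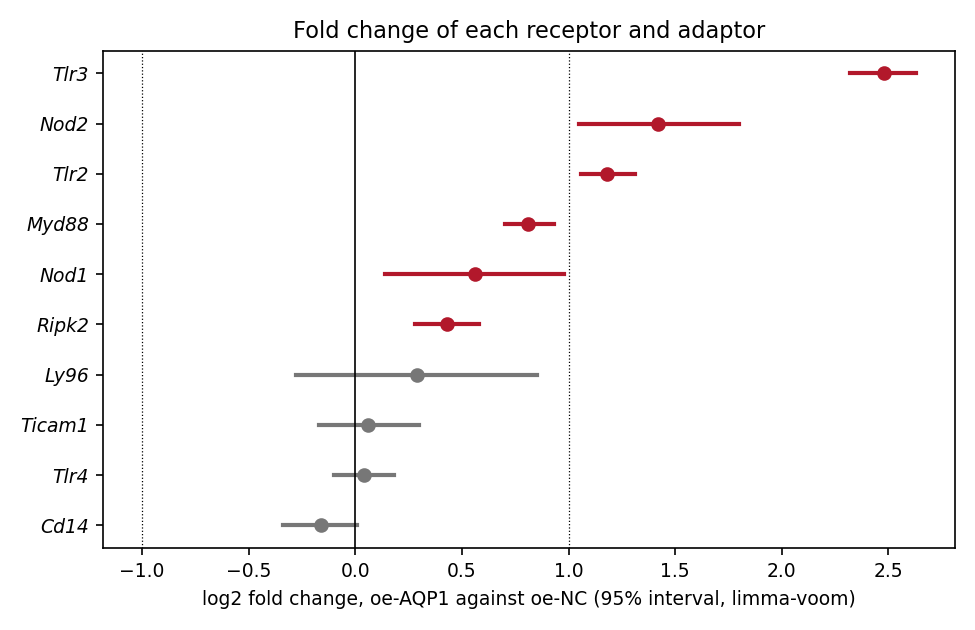
Fold change of each gene on the log2 scale (x axis, oe-AQP1 against oe-NC), with the 95% interval of the limma-voom fit as a line. Red genes had an adjusted p under 0.05, grey genes did not, and the dotted lines mark a log2FC of 1 and -1, which the points of Tlr2, Nod2 and Tlr3 exceed.

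A value for 1 gene can also be tested over samples alone, but 3 samples against 3 allow no exact two-sided permutation p below 0.1. The adjusted p-values thus rest on a spread that the models estimate across genes.

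To compare levels between genes, counts were divided by exon length, as CPM per kilobase of exon. The length joins the exons of all annotated transcripts of a gene, so the order between genes depends on this choice. In oe-NC cells Myd88 had the highest level of the 10, at 8.16 ± 0.168 CPM per kilobase (SD, n = 3), followed by Cd14 (7.42), Tlr4 (5.71), Tlr2 (5.50), Ticam1 (4.50), Tlr3 (3.60), Ripk2 (3.04), Ly96 (1.75), Nod1 (0.453) and Nod2 (0.390). The ranges of the 3 samples overlapped between the neighbours Tlr4 and Tlr2 and between Nod1 and Nod2, so these pairs were not ordered beyond their spread. Tlr3, at 3.30 to 3.88 CPM per kilobase, lay wholly below Tlr2 (5.27 to 5.76) and Tlr4 (5.44 to 6.24) in control cells, and both NOD receptors lay below all of these.

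In oe-AQP1 cells the order of the levels per length changed. Tlr3 moved from place 6 to place 1, at 19.1 to 20.8 CPM per kilobase, followed by Myd88 (14.4), Tlr2 (12.5), Cd14 (6.62), Tlr4 (5.85), Ticam1 (4.69), Ripk2 (4.09), Ly96 (2.00), Nod2 (1.06) and Nod1 (0.675). Only the neighbours Ticam1 and Ripk2 had overlapping ranges. Nod2 lay wholly above Nod1 in oe-AQP1 cells. In oe-NC cells Nod2 had the lowest mean, but its range overlapped that of Nod1, so their order there is not settled.

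**Figure D3:**
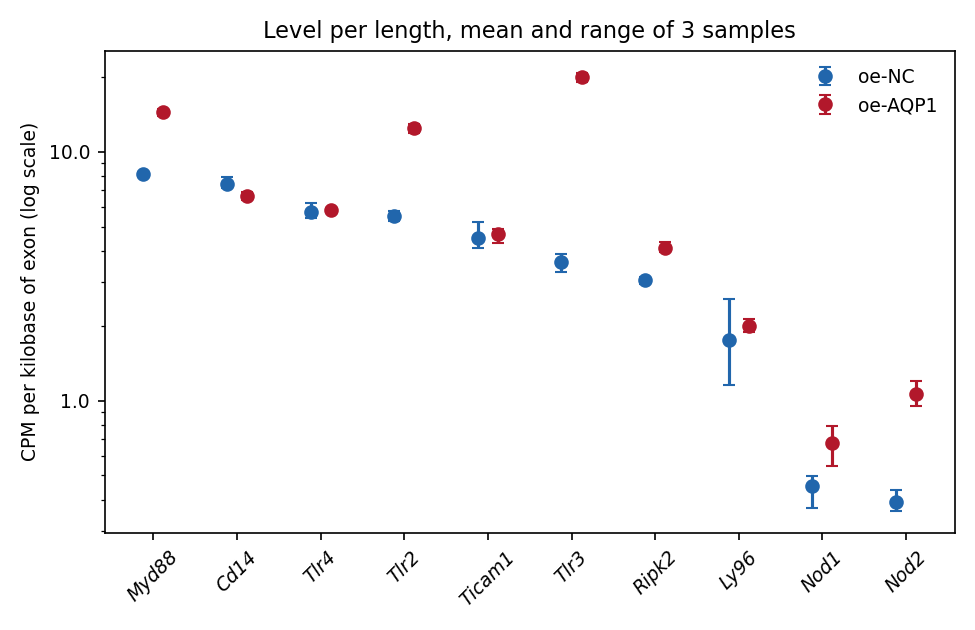
Level per length (y axis, CPM per kilobase of exon, log scale) of the 10 genes, ordered by their level in oe-NC cells, as the mean and range of 3 samples in oe-NC (blue) and oe-AQP1 (red). Tlr3 lay at 3.30 to 3.88 in oe-NC and at 19.1 to 20.8 in oe-AQP1 cells, while the means of Tlr4 were 5.71 and 5.85.

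The balance between a receptor and the protein it works with was taken as the ratio of their levels per length in each sample, for 6 pairs chosen after the values of the genes had been seen. Tlr3 per Ticam1 was 4.16, 4.44 and 4.25 in the oe-AQP1 samples and 0.628, 0.884 and 0.933 in the oe-NC samples. The level per length of the receptor thus exceeded that of its adaptor in each oe-AQP1 sample and in no oe-NC sample. Without division by length, Tlr3 lay above Ticam1 in the oe-NC samples too (17.6 to 20.7 against 12.3 to 15.7 CPM). The order of the pair in oe-NC cells thus rests on the lengths used. Tlr2 per Myd88 ran from 0.851 to 0.888 in the oe-AQP1 samples and from 0.659 to 0.691 in the others. Nod2 per Ripk2 ran from 0.220 to 0.304 in the oe-AQP1 samples and from 0.114 to 0.148 in the others. For these 3 pairs the groups did not overlap, and the exact two-sided permutation p was 0.1, the smallest that this design allows (0.2 adjusted over the 6 pairs). Groups overlapped for Tlr4 per Ly96 (exact p = 0.5), Tlr4 per Cd14 (exact p = 0.2) and Nod1 per Ripk2 (exact p = 0.7).

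**Figure D4:**
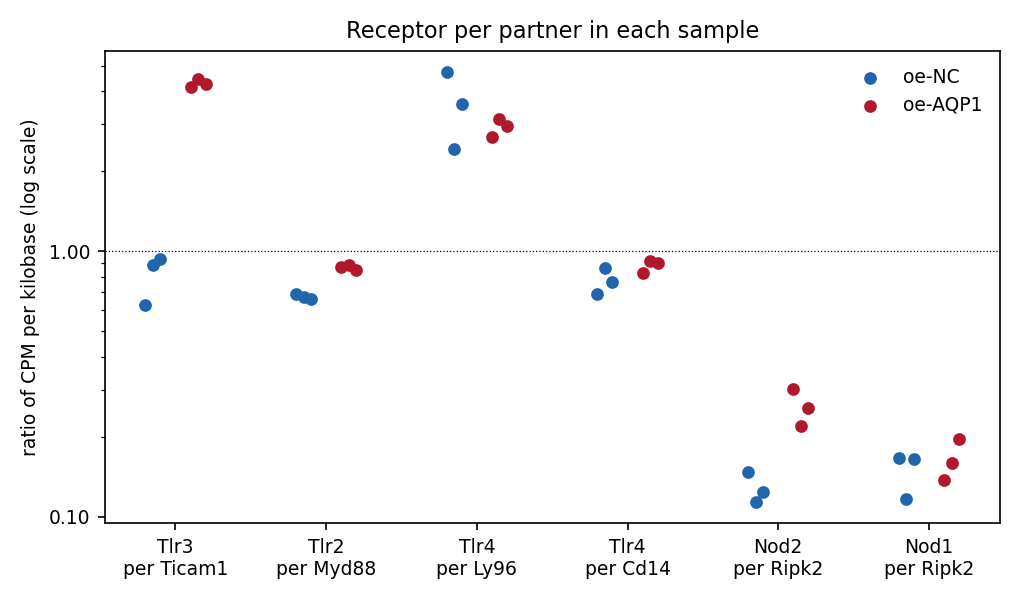
Ratio of the level per length of a receptor to that of its partner (y axis, log scale, dotted line at a ratio of 1), with 1 point per sample in oe-NC (blue) and oe-AQP1 (red). Tlr3 per Ticam1 lay at 4.16 to 4.44 with Aqp1 and at 0.628 to 0.933 with the empty vector, and Nod1 per Ripk2 overlapped between the groups.

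Around these 10 genes, 96 other genes of the same pathways were listed in 8 groups by role. Of these, 67 had enough counts to be tested, 33 rose and 9 fell with Aqp1, and 25 did not pass the test, with a median log2FC of 0.18. Beside these counts stand 16.0% higher and 16.6% lower over all genes tested. Of the 67, Naip5, Il6 and Ifnb1 reached the level filter (0.497 CPM in 3 samples) in every sample of oe-AQP1 but not of oe-NC, so they were tested only through the group where they are high. Without them and the 2 genes that reached it in every sample of oe-NC but not of oe-AQP1 (Pik3ap1 and Slc46a3, named after their values were seen), 30 of 62 were higher and 9 lower. Of 9 other Toll-like receptors, Tlr5 and Tlr6 were counted well enough to be tested, and neither passed the test (log2FC of -0.01 and 0.19). Tlr8 had no count in any sample. Of 5 receptor partners and chaperones tested, 1 was higher and 3 were lower. The higher was Unc93b1, which escorts Tlr3 and other nucleic acid receptors to endosomes (1557, 1715 and 1613 counts with Aqp1, 768, 689 and 760 with the empty vector, log2FC = 1.07, adjusted p = 9.07e-08 by limma-voom). The lowest that passed the test was Lbp, the lipopolysaccharide-binding protein (log2FC = -0.30, adjusted p = 3.37e-04). The adaptors Tirap and Pik3ap1 did not pass the test (log2FC of -0.03 and -0.15).

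Of 18 proximal kinases and ligases tested, 7 were higher and 3 lower (16.0% and 16.6% over all genes), none past the fold threshold, with log2FC from -0.24 (Irak1) to 0.92 (Ikbke) and a median of 0.11. Ikbke encodes a kinase that activates interferon regulatory factors downstream of Ticam1, and Irak1 a kinase downstream of Myd88. Of 13 partners of the NOD branch tested, 7 were higher and 1, Nagk, was lower (log2FC = -0.42, adjusted p = 0.00146 by limma-voom). Nagk phosphorylates N-acetylglucosamine and is known to act on the muramyl peptides that Nod2 senses. The median of that group was 0.16.

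Of 13 negative regulators tested, 4 were higher and 2 lower, with a median log2FC of 0.24. Over all genes 16.0% were higher and 16.6% lower, and the lower share here is near the latter. The fold threshold was passed upward by 4.39% of all genes. Past the fold threshold were Trim30a (log2FC = 2.02, adjusted p = 1.90e-10 by limma-voom), which is known to restrain Traf6 signaling, and Nlrc5 (log2FC = 1.67, adjusted p = 8.57e-10), which is also known as the activator of MHC class I genes. The lowest that passed the test was Dusp1, a MAP kinase phosphatase (log2FC = -0.28, adjusted p = 0.00567). Of 12 other NOD-like receptors, Naip2 and Naip5 were tested. Naip2, which reached the level filter in both groups, was higher (log2FC = 0.67, adjusted p = 1.86e-05). Naip5 counts were 33, 40 and 35 with Aqp1 and 11, 6 and 10 with the empty vector (log2FC = 1.90, adjusted p = 4.58e-04). The Naip genes are close copies of one another, so the split of reads among them is uncertain.

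Of 14 genes known as outputs of these receptors, 10 reached the level filter in both groups. These 10 were higher, 9 of them past the fold threshold, with a median log2FC of 2.06. Over all genes tested, 16.0% were called higher and 4.39% also passed the fold threshold upward. Il6 and Ifnb1 reached it in oe-AQP1 samples alone. The genes of this group are also outputs of interferon and TNF signaling, and several had been seen to change in these samples when the group was written, so that it is no independent evidence. The largest fitted log2FC in the group were those of the interferon gene Ifnb1 (5.72), the cytokine gene Il6 (5.29), the chemokine genes Ccl5 (5.20) and Cxcl10 (5.19), the interferon-induced Ifit1 (3.02) and the chemokine gene Ccl2 (2.60). Ifnb1 was counted 264, 288 and 277 times in oe-AQP1 libraries and 3, 6 and 5 times in oe-NC libraries. Il6 had 127 counts over the oe-AQP1 samples and 2 over the oe-NC samples, a ratio of 60.4 with a 95% counting interval of 16.4 to 504. The fitted value of Il6, a fold of 39.0, comes from logarithms of counts with a small offset added, and the order of Ifnb1 and Il6 is not settled by 2 control counts.

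**Figure D5:**
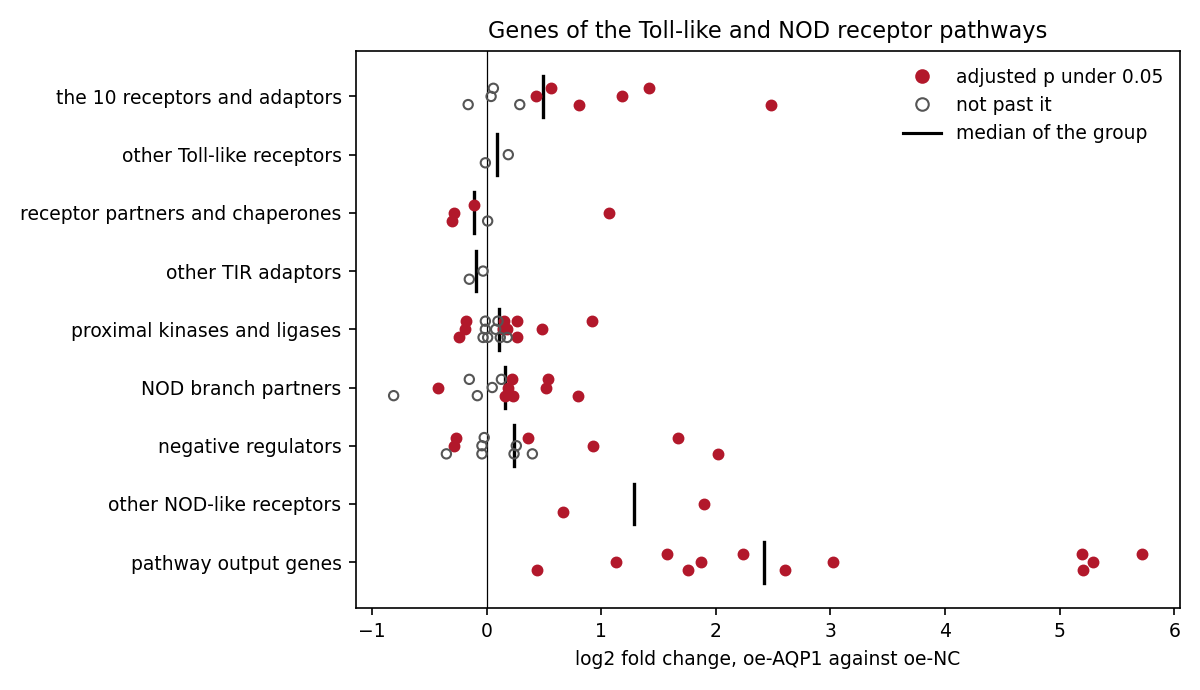
Fold change on the log2 scale (x axis, oe-AQP1 against oe-NC) of the 10 receptors and adaptors and of the tested genes in 8 other groups of their pathways, with 1 point per gene, red where the adjusted p was under 0.05, and a black line at the median of each group. The medians lay at 0.50 for the 10 genes, 0.11 for proximal kinases and ligases and 2.42 for the 12 output genes tested, which include Il6 and Ifnb1.

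The genes whose profile over the 6 samples was most like that of Tlr3, by the root mean square distance between centred log2 CPM among 11808 genes with a mean of at least 50 counts, were Parp14 (0.061), Hsh2d (0.063) and Ifit1bl2 (0.064). Their log2FC were 2.43, 2.49 and 2.52, and the distance mostly measures the size of the difference between the groups. Ifit1bl2 belongs to a multigene family, and its counts may share reads with its copies.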

How the data were processed

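RNA sequencing counts of 3 oe-AQP1 and 3 oe-NC samples were used. TruSeq libraries were sequenced from both ends, and the authors deposited expected counts per gene, not scaled between samples. About 10% of the deposited values were not whole numbers. The submitters' processing notes name fastp, HISAT2, featureCounts, Subread and GRCm38 (mm10), whereas the methods of the paper name GRCm39, and 78168 of 78298 gene identifiers were found in GENCODE M39, from which positions and lengths were taken. Whether counting used strand is not given in the sources used here. The 2 columns of group means were not used.

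Expected counts were rounded and filtered with filterByExpr (15522 genes kept), scaled by TMM (factors 0.993 to 1.006) and compared by limma-voom (limma 3.58.1, edgeR 4.0.16, R 4.3.3), the test that the methods of the paper name. Adjusted p-values are Benjamini-Hochberg over all genes kept. Alternatives were DESeq2 1.42.0, the quasi-likelihood test of edgeR, sample quality weights, other scalings and filters, unrounded counts, protein-coding genes alone, a replicate block and leaving out each sample. The scripts were tested on simulated counts. The paper states that interferon-stimulated and antiviral genes were filtered out of its differential expression analysis to limit artifacts of transfection. It kept inflammatory mediators that it calls relevant to cancer. No genes were removed on such grounds here. The groups come from the sample titles. The series text calls the samples biological replicates.

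Genes were named by a rule: the 10 members, Aqp1, genes of each pathway group past both thresholds (at most 6) with the lowest called gene, called marker genes of other cell types (at most 4 per list), and the 3 profiles closest to the member that changed most. Other genes were named after their values were seen. The members and lists were chosen with earlier results of these data known. Counting intervals cover counting error only.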

Additional observations from a re-analysis of the deposited data

How the results depend on the processing

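Each result was refitted under 12 other settings and with each sample left out. Of the 10 genes, 5 or 6 were called higher, 0 lower and 3 past both thresholds in every fit, and with an adjusted p under 0.01 as the threshold 5 were higher and 0 lower. Tlr2, Tlr3, Nod2, Myd88 and Ripk2 were called higher under every alternative, and Tlr4, Ly96, Cd14 and Ticam1 under none. The log2FC of Tlr3 stayed between 2.41 and 2.53, that of Ripk2 between 0.39 and 0.45, and that of Aqp1 between 7.50 and 7.80. The call of Nod1 was lost in 6 of 18 refits, and the cause was not tested. Among the 96 pathway genes, 27 to 36 were higher and 6 to 10 lower. The replicate numbers of the labels did not pair the samples (correlations of same-numbered deviations of 0.009, -0.004 and -0.068). With the number as a replicate block, 6 of the 10 genes were higher and 0 lower, and 4825 of all genes were called, against 5050 without it. Without oe-NC sample 1, 6456 genes were called. The counting error of Ly96, Nod1 and Nod2 was 9.53% to 16.1% of the mean in each group, and the observed spread of Ly96 in oe-NC samples (42.0%) was larger.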
